A study of Myzus persicae with 4 samples.

Results

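The 200 brightest contigs in the control-diet channel of an aphid head array are described here, out of 10295 contigs on the array (1.94%). They were chosen on measured values. Within each array the 14434 contig probes were ranked by the log2 processed signal of the control-diet channel, ranks were averaged over 3 biological replicates, the probe of best mean rank stood for its contig, and the 200 contigs of best mean rank were kept. These control-diet levels are therefore a description and were not tested. The working name of the list was the most abundant head transcripts. Spot brightness depends on the probe as well as on the amount of RNA, so the order of the contigs is an order of signal, and whether it is also an order of abundance could not be checked. A further 194 probes carry other names than contig numbers and were outside the rule. Ranked together with the contigs, 48 of them lay at or above the last member.

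The study set heads of the green peach aphid Myzus persicae, called the tobacco aphid in the study's title, after feeding on a liquid diet with nicotine against heads after feeding on the same diet without it. The nicotine group fed for 24 h on 250 µM nicotine in a diet of sucrose and amino acids, and the control group fed for 24 h on the diet with no nicotine. Aphids of both groups were moved to the diet from cabbage plants, so neither group was left on a plant. Each of 4 two-colour arrays held RNA of both groups: arrays 1 and 3 were 2 hybridisations of replicate 1, with nicotine in green and control in red, and arrays 2 and 4 were replicates 2 and 3, with nicotine in red and control in green. This follows the titles, while the descriptions name array 4 and not array 3 as the technical repeat. How many aphids made up a replicate, and whether replicates were separate cohorts, is not given in the sources used here. The p-values therefore measure only a spread between these samples, and with a dye term only that between replicates 2 and 3. Replicate 1 is also the only replicate of its dye orientation, so what sets replicate 1 apart and what comes from the dyes cannot be told apart.

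In most animal tissues a small set of genes supplies a large part of the messenger RNA, among them genes of the ribosome, of energy metabolism and, in heads, of muscle, cuticle and the eyes. Nicotine is an alkaloid of tobacco leaves that opens the nicotinic acetylcholine receptors of neurons, and insects that feed on tobacco are known for enzymes that break it down. Contigs are transcript stretches assembled from sequenced cDNA, and the files pair them with no gene names or sequences. No role, genome position or sequence is therefore given for any contig. For the same reason the head label was not checked against marker genes, and the list was not sorted by function. Heads are bulk samples, so fewer cells of a type and less RNA per cell cannot be told apart.

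All 200 members were well above background in both channels of all 4 arrays, and none was saturated. The brightest median spot reached between 29.1% and 55.8% of the saturation limit of its channel. The members' median level in the nicotine channel was 14.78, 15.12 and 14.74 (log2 processed signal) in replicates 1 to 3, and in the control channel 15.39, 15.09 and 14.70. The other 10095 contigs had medians of 8.59, 8.87 and 8.96 in the nicotine channel and of 8.61, 8.86 and 8.96 in the control channel. In replicate 1 the members' median was lower in the nicotine than in the control channel, and in replicates 2 and 3 both channels lay closer together. Shares were taken of the summed signal of all contigs, with only the probe of best mean control-channel rank standing for each contig. The members supplied 24.9% and 24.0% of that sum in the nicotine channel of arrays 1 and 3, against 32.5% and 30.3% in the control channel. On arrays 2 and 4 their share was 25.6% and 23.1% in the nicotine channel and 25.9% and 24.7% in the control channel. The red channel held the control RNA on arrays 1 and 3 only, and the part of the dyes in these shares was not tested.

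The contig of best mean rank was contig10031. Its level was 13.27, 15.03 and 14.86 in the nicotine channel of replicates 1 to 3, against 16.08, 16.40 and 16.09 in the control channel. The nicotine levels lay below all control levels, lowest in replicate 1, and its place in the same ranking of the nicotine channel was 281. The contig next in order, contig5895, had levels of 14.54, 15.81 and 14.89 with nicotine and 16.00, 16.21 and 16.23 without. For contig3346 they were 13.95, 15.45 and 15.04 with nicotine and 16.05, 16.15 and 15.96 without. Both contigs again had their lowest nicotine level in replicate 1, and their nicotine ranges did not reach the control ranges.

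In contrast, contig2 was bright in both channels, with levels of 15.68, 15.78 and 15.62 with nicotine and 16.03, 16.37 and 15.93 without. It stood at place 4 in the control ranking and at place 6 in the nicotine ranking, and it was the 1 contig among the first 10 of both lists. On this probe its nicotine values spread over less than its control values, with SDs of 0.08 and 0.23 (n = 3 each). The nicotine ranking kept the probe that was best there, which for contig2 was the other one. That probe had levels of 15.86, 15.93 and 15.43 with nicotine and 16.08, 16.73 and 15.32 without, so its diets overlapped. Next came contig6774, with 15.70, 15.73 and 15.50 with nicotine and 15.99, 16.44 and 16.00 without. The other contigs of the first 10 were contig1353, contig802, contig3543, contig6960 and contig1, with nicotine-channel places of 127, 100, 26, 257 and 23. For contig3543 and contig1 the nicotine and control values overlapped, while for the others they did not. Since the first 10 were taken for high control values, lower nicotine values and separate ranges are partly set by the choice. How often the ranges are separate over all contigs was not counted, so nothing is read from them here.

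**Figure D1:**
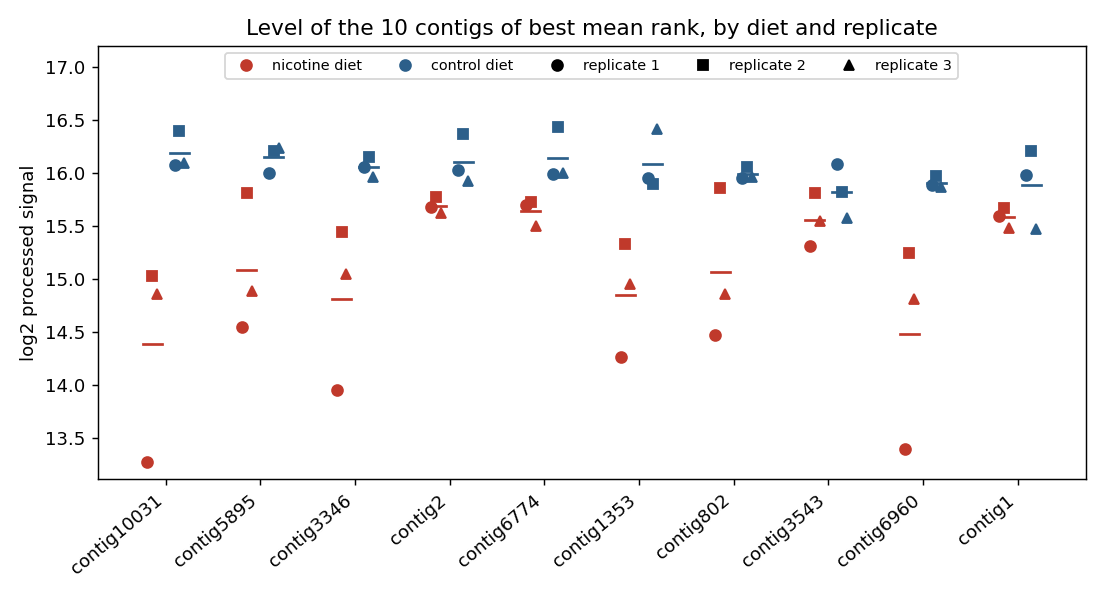
Log2 processed signal (vertical axis) of the 10 contigs of best mean rank in the control channel, with nicotine diet in red left of control diet in blue, replicate 1 as the mean of its 2 arrays, and bars at the mean of 3 replicates. The control values lie between 15.47 and 16.44, and the lowest nicotine values, 13.27 for contig10031 and 13.40 for contig6960, are from replicate 1.

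Levels within the list lay close together. Mean control-channel levels of the members covered 14.51 to 16.19, and the SD over 3 replicates had a median of 0.37. Neighbours in the order of mean level were a median of 0.0043 apart, with a widest gap of 0.079. With so many contigs in so narrow a range, neighbours cannot lie far apart, and the place of a single contig has little meaning beyond its level. The last members inside the limit were contig9406, contig488 and contig2583, with mean ranks of 346.67, 347.33 and 350.17 and mean control levels of 14.70, 14.56 and 14.52. The contigs just outside were contig4681, contig1870 and contig5918, with mean ranks of 351.5, 351.83 and 353.33 and mean control levels of 14.72, 14.52 and 14.69. The levels on both sides of the limit overlapped.

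Levels were not scaled between arrays, so an SD over replicates also holds shifts shared by many contigs of an array. In the control channel the members' median spread over replicates was close to that of the other contigs. Their control-channel SD ran from 0.04 to 1.48 with 8 of 200 members over 1. The other contigs had a median SD of 0.35, with 927 of 10095 over 1. In the nicotine channel the members' median SD was 0.39, against 0.49 in the other contigs. There 11 of 200 members and 1808 of 10095 other contigs were over 1. The steadiest members were contig2583, with control levels of 14.56, 14.49 and 14.52, and contig6960, with 15.89, 15.98 and 15.87. In the nicotine channel contig2583 had 14.55, 15.06 and 14.28, and contig6960 had 13.40, 15.25 and 14.81, so a steady control level did not go with a steady nicotine level in these contigs. The least steady were contig1067 and contig3274. Levels of contig1067 were 14.12, 12.92 and 15.15 with nicotine and 15.52, 16.55 and 13.63 without. Levels of contig3274 were 13.73, 14.79 and 15.17 with nicotine and 15.91, 15.69 and 13.71 without. In both contigs replicate 3 was the only replicate with the higher value in the nicotine channel. The repeat hybridisations of replicate 1 differed far less than the replicates: array 1 minus array 3 in the control channel had an SD of 0.08 over the members, while differences between replicates had SDs of 0.52, 0.72 and 0.62.

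The ranks that chose the members varied between replicates. The members' median rank in the control channel was 174, 166 and 170 in replicates 1 to 3, with worst ranks of 591, 714 and 797. Of the 200 members, 155, 164 and 161 were among the 200 brightest contigs of that replicate alone, and 96 were so in all 3 replicates. When the list was chosen again without replicate 1, 2 or 3, it shared 173, 175 and 177 contigs with the members. Of those newly chosen lists, 128, 141 and 139 contigs were among the 200 brightest in the replicate left out, which had no part in the choice. The worst rank of such a contig in the replicate left out was 12086, 976 and 1690 of 14434.

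The same rule applied to the nicotine channel gave a list that shared 141 contigs with the members, 70.5% of either list. Among its own replicates, 114 contigs were within the 200 brightest every time, and 59 contigs were so in every replicate of both diets. The first 10 members included 8 of the nicotine list. Of the first 100 of each list, 55 were shared. The 59 members outside the nicotine list were still bright with nicotine: the worst nicotine place of any member was 851 of 10295, and 11 members lay beyond place 500. In the other direction, the worst control place of a contig of the nicotine list was 444. Both choices use a channel that the ratio contains, so the split of the members into 141 and 59 and their ratios are linked by construction. The 141 had a median nicotine coefficient of -0.12 and the 59 of -0.92 (log2, nicotine over control).

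The ratio of nicotine to control was taken from normalised log2 ratios within each array, in which an intensity-dependent dye trend was removed (loess). Because the rule used the control channel, the denominator of this ratio, the same counts over all 12503 probes tested are given with them, and nothing is read from the difference. In replicate 1 the members' median log2 ratio was -0.60, with 163 of 200 (81.5%) below 0, against 47.9% of all probes. In replicate 2 the median was 0.00 with 100 of 200 below 0, against 49.7% of all probes, and in replicate 3 it was 0.04 with 95 (47.5%) below 0, against 50.2%. The medians of all probes were 0.03, 0.00 and -0.00. At least 2-fold lower were 62, 17 and 23 members in replicates 1 to 3, and 844, 276 and 419 of all probes. At least 2-fold higher were 0, 22 and 15 members, and 955, 382 and 894 of all probes. The median was thus below 0 in replicate 1 alone, the replicate with control in red, and the medians of the 3 replicates had an SD of 0.36. With each array centred on its median in place of loess, the members' medians were -1.60 and -1.64 on arrays 1 and 3, and 0.81 and 0.71 on arrays 2 and 4. The sign thus differed between replicate 1 and replicates 2 and 3, which also differ in dye orientation, and the cause was not tested.

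**Figure D2:**
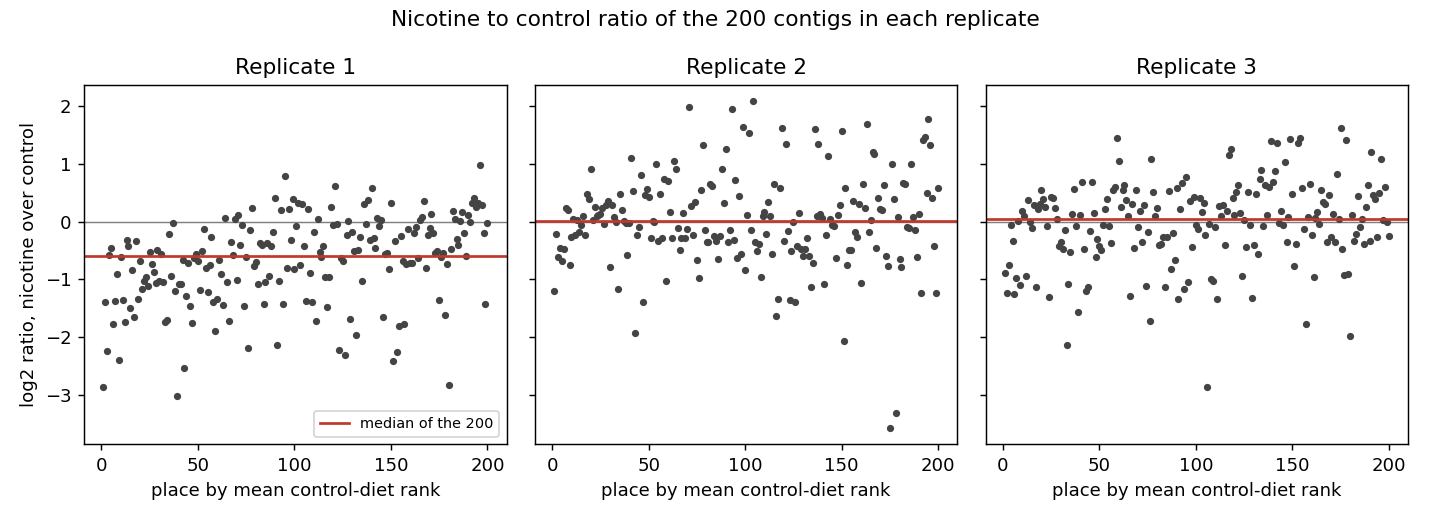
Log2 ratio of nicotine over control after loess (vertical axis) against the place of each of the 200 contigs by mean control-diet rank (horizontal axis), 1 panel per replicate, with a red line at the median of the 200. The medians are -0.60, 0.00 and 0.04, and in replicate 1 the first 10 places have a median of -1.39.

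In the limma fit of the 3 replicates, which held a term for nicotine and a term for dye, 0 of 200 members passed an adjusted p of 0.05, and over all probes 0% did. With array 4 in place of array 3 as the repeat of array 1, as the arrays' descriptions have it, 45 members passed, among 1752 of all probes. That reading counts arrays 1 and 3 as separate replicates, although the members' ratios on them had r = 0.949. Between replicate 1 and array 4, which it averages with array 1, the members' ratios had r = 0.428. With the titles' reading, the lowest Benjamini-Hochberg adjusted p of a member was 0.307. Before adjustment, 47 members had p under 0.05 (16% of all probes), of which 3 were higher (8.17% of all probes) and 44 lower (7.79% of all probes) with nicotine. The ratio was below 0 in all 3 replicates for 53 members, against 22.6% of all probes, and above 0 in all 3 for 27 members, against 23.5% of all probes. A ratio at least 2-fold lower in every replicate was seen in 2 members, contig1529 and contig4634, against 0.168% of all probes. A ratio at least 2-fold higher in every replicate was seen in 0 members, against 0.16% of all probes. The members' median coefficient was -0.31, against 0.02 over all probes, with 151 below 0 and 49 above, while 47.9% of all probes were below 0. This median was -0.19 without the dye term and -0.48 with each array centred on its median in place of loess. Without replicate 1 it was 0.01, and 19 members were higher and 15 lower at an unadjusted p under 0.05. Over all 12503 probes, 327 were higher and 362 lower in that fit. Without the dye term 13 members were higher and 40 lower, against 1331 higher and 1142 lower of all 12503 probes.

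The ratios changed with the place in the list. The first 10 places had a median coefficient of -0.97, and all 10 coefficients were below 0. Places 11 to 50 had a median of -0.41, places 51 to 100 of -0.33 and places 101 to 200 of -0.10. Among the first 50 members none was above 0 in all 3 replicates, while among places 101 to 200 there were 19 above and 19 below 0 in all 3. The first 10 were also below 0 in the median of every replicate, at -1.39, -0.47 and -0.82. A place near the top requires high control values, which lower this ratio, so the gradient is given as a description.

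By the pattern of signs over replicates 1, 2 and 3, the commonest after below 0 in all 3 (53 members) was lower, lower, higher, in 44 members (22.0%, against 6.41% of all probes). Lower, higher, higher and lower, higher, lower were seen in 33 members each (16.5%, against 5.33% and 13.5% of all probes). Higher, lower, higher was seen in 1 member (0.5%, against 14.5% of all probes). Across the 200 contigs, which are not independent replicates, the ratios of replicates 1 and 2 had Pearson's r = 0.566, those of replicates 1 and 3 r = 0.428, and those of replicates 2 and 3 r = 0.122. The 2 hybridisations of replicate 1 had r = 0.949, and 185 of 200 members had the same sign on both.

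The highest coefficients of one direction on all 4 arrays belonged to contig4674 and contig4667. Levels of contig4674, at place 196 in the control ranking and 11 in the nicotine ranking, were 16.43, 15.74 and 15.24 with nicotine and 15.44, 14.41 and 14.22 without. Its log2 ratios were 0.98, 1.33 and 1.08, and its coefficient was 1.09 ± 0.19 (SE, limma, adjusted p = 0.307). Both diets were brightest in replicate 1 and dimmest in replicate 3, so the diets' ranges overlapped while each replicate's ratio was above 0. Over all members the control medians also fell, at 15.39, 15.09 and 14.70, while the nicotine medians were 14.78, 15.12 and 14.74. For contig4667 the levels were 16.26, 15.83 and 15.11 with nicotine and 15.61, 14.46 and 14.68 without, and the coefficient was 0.77 ± 0.26 (SE, limma, adjusted p = 0.309).

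The lowest coefficients were those of contig4013 and contig4634. Levels of contig4013 were 11.35, 13.85 and 13.00 with nicotine and 14.15, 14.79 and 14.96 without. It stood at place 851 of the nicotine ranking, the farthest of all members, and the nicotine values lay below all control values. Its log2 ratios were -2.83, -0.65 and -1.99, and its coefficient was -2.08 ± 0.35 (SE, limma, adjusted p = 0.307). Levels of contig4634 were 12.38, 13.44 and 13.99 with nicotine and 15.14, 15.48 and 15.24 without. Its ratios of -2.54, -1.93 and -1.20 made it 1 of the 2 members at least 2-fold lower in all replicates, and its coefficient was -2.05 ± 0.24 (SE, limma, adjusted p = 0.307).

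Replicate 3 stood apart in a small group. There were 8 members at least 2-fold lower with nicotine in replicate 1 and at least 2-fold higher in replicate 3 (4.0%, against 37 probes or 0.296% of all probes), contig1067 and contig3274 among them. The 37 probes came from 24 contigs. In 7 of the 8 members replicate 2 was lower too. Their median nicotine level was 14.12, 14.77 and 15.13 in replicates 1 to 3, against control medians of 15.77, 15.72 and 13.87. The nicotine values of replicate 3 ran from 15.00 to 15.37, those of replicate 1 from 13.73 to 14.98 and those of replicate 2 from 12.42 to 15.79, so the nicotine ranges of replicates 2 and 3 overlapped. The control values of replicate 3 ran from 13.63 to 14.45 and lay below those of replicate 1, 15.44 to 16.12, and of replicate 2, 15.08 to 16.55. This group was noticed in the data, its 2-fold limits use the ratio, and no test was made of it.

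A second probe gives a measurement of 155 members that did not choose them directly, although it shares the arrays and the RNA. Of all contigs, 4139 have 2 probes and 6156 have 1, and 77.5% of the members had 2, against 39.5% of the other contigs. A contig with 2 probes had more chances to enter, since its better probe was kept. Of the 155 second probes, 104 (67.1%) had a mean rank within the limit of the last member. The second probe's mean control level was a median of 0.15 below the kept probe's, and in 125 members it was within 0.5. In 14 members (9.03%) it was lower by more than 1, against 746 of 3984 (18.7%) other contigs with 2 probes, where the dimmer was set against the brighter.

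The probe pairs farthest apart were those of contig2999 and contig1895. The kept probe of contig2999 had a mean control level of 14.61 and the other one of 4.02, with a mean rank of 12764.67 among the 14434 probes. For contig1895 the levels were 14.92 and 9.09, and the other probe's mean rank was 7412.5. For these contigs the place in the list rests on the probe. There were 10 members whose other probe ranked beyond 1000.

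**Figure D3:**
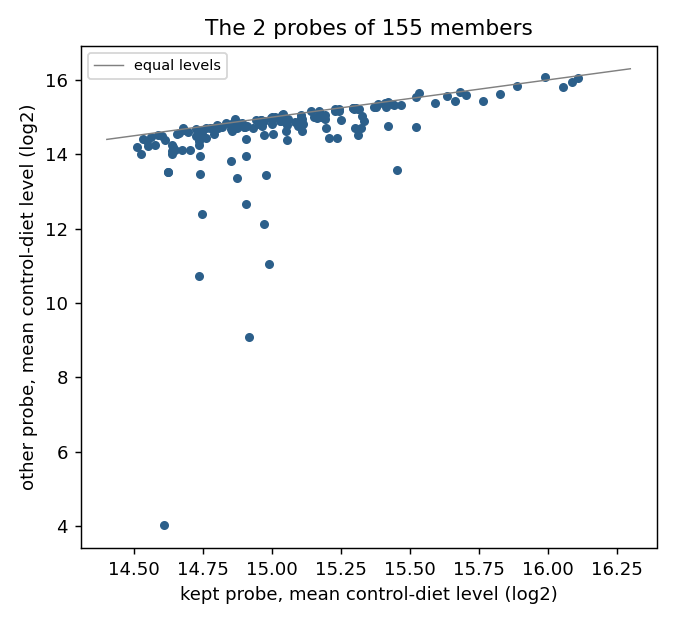
Mean control-diet level (log2 processed signal) of the other probe (vertical axis) against that of the kept probe (horizontal axis) for 155 members, with a grey line at equal levels. Most points lie on or just under the line, and the lowest, at 4.02, is contig2999.

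The ratios of the second probes went along with those of the kept ones but were not equal to them. Of 154 tested, 134 had a coefficient of the same sign as the kept probe. Across these contigs the coefficients had r = 0.913, and their differences had an SD of 0.24. Their median coefficient was -0.22, against -0.28 for their kept probes, and 107 against 113 were below 0. Their median ratio was -0.48, 0.00 and 0.08 in replicates 1 to 3, so replicate 1 was the low one in this measurement too. In all 3 replicates 30 of the 154 were lower and 20 higher with nicotine, against 22.6% and 23.5% of all probes. For contig1067 the second probe's ratios were -1.44, -4.27 and 0.91, against -1.36, -3.57 and 1.61 for the kept one, and for contig3274 they were -2.14, -0.76 and 1.62, against -2.26, -0.76 and 1.36. The turn of sign in replicate 3 was thus present on both probes of contig1067 and contig3274. In contig3486, of the same group of 8, the second probe was above 0 in replicate 1, at 0.36 against -1.62 for the kept one. In contig1053, contig3082 and contig3580 the second probe was also at least 2-fold lower in replicate 1 and at least 2-fold higher in replicate 3.

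Contig numbers, which the rule did not use, were uneven in the list. The members' median contig number was 3252.5 (quartiles 1934 and 4067.25), against 5238 in the other contigs (quartiles 2593.5 and 7776.5). Between numbers 3001 and 4000 there were 71 members among 1000 contigs (7.1%), while 24 of 999, 28 of 1000 and 24 of 999 were members in the steps of 1000 numbers below. Between 5001 and 9000 the counts were 4, 2, 0 and 2 members per 1000 numbers. Beyond 10000 lay 5 members among the 38 contigs numbered 10001 to 11000 and 3 among the 438 numbered 15001 to 16000. Second probes go with the numbers: the highest number with 2 probes was 4331, and up to it 156 of 4322 contigs (3.61%) were members, against 44 of 5973 (0.737%) above it. The step 4001 to 5000, where 22.3% of the contigs had 2 probes, held 29 members among 989 contigs (2.93%). The part of the second probe in the uneven numbers was not tested. Contigs numbered 1001 to 4000 all had 2 probes.

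**Figure D4:**
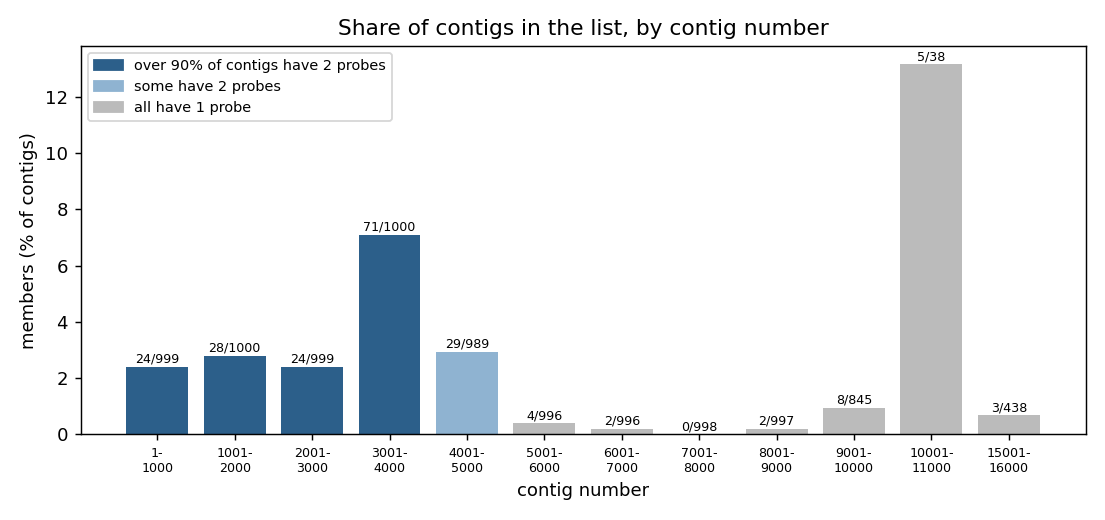
Members as a percentage of the contigs on the array (vertical axis) by contig number in steps of 1000 (horizontal axis), with members over contigs written above each bar and the colour showing how many contigs have 2 probes. The steps 3001 to 4000 (7.1%) and 10001 to 11000 (13.2%, of only 38 contigs) stand highest.

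The 71 members numbered 3001 to 4000 had a median coefficient of -0.17 and the other 129 of -0.39. Among the 71 there were 10 lower and 14 higher with nicotine in all 3 replicates, against 43 lower and 13 higher among the 129 (22.6% lower and 23.5% higher over all probes). All 1887 tested probes numbered 3001 to 4000 had a median coefficient of 0.09. In the nicotine list stood 57 of the 71 and 84 of the 129.

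Neighbours by number made up a part of the members numbered 3001 to 4000. All contigs of that step had a median control level of 11.31, the highest of any step. In all, 58 members stood next to another member by number, in 18 runs, and 142 did not. In 2 stretches at least 10 members followed each other by steps of at most 2, a limit set after the numbers were seen, and the next longest stretch had 5 members. From contig 3252 to 3264, 11 of 13 contigs were members, at places 64 to 195, and the other 2, contig3255 and contig3257, stood just outside at places 219 and 264. Their median level was 16.07, 15.88 and 15.20 with nicotine and 15.63, 14.41 and 14.68 without. Within a replicate and diet the 11 were close together, with an SD of 0.07 to 0.22, against 0.46 to 0.96 over all members. Their median log2 ratio was 0.31, 1.57 and 0.46, and 10 of the 11 were above 0 in all 3 replicates. In replicate 2 the ratios ran from 0.91 to 2.08, and there the median control level was the lowest of the 3 while the median nicotine level was not. Coefficients ran from 0.35 to 0.75. The 11 second probes had median ratios of 0.30, 1.75 and 0.55.

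From contig 3403 to 3413 all 11 contigs were members, at places 29 to 115. Their median level was 14.96, 15.44 and 14.81 with nicotine and 15.50, 15.00 and 15.35 without. Median log2 ratios were -0.50, 0.48 and -0.42, with 0 of 11 above 0 and 0 of 11 below 0 in all 3 replicates, and their second probes had medians of -0.48, 0.48 and -0.36. All members of both stretches were also in the nicotine list. The medians of the stretches therefore differed in sign in replicates 1 and 3 and were both above 0 in replicate 2.

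**Figure D5:**
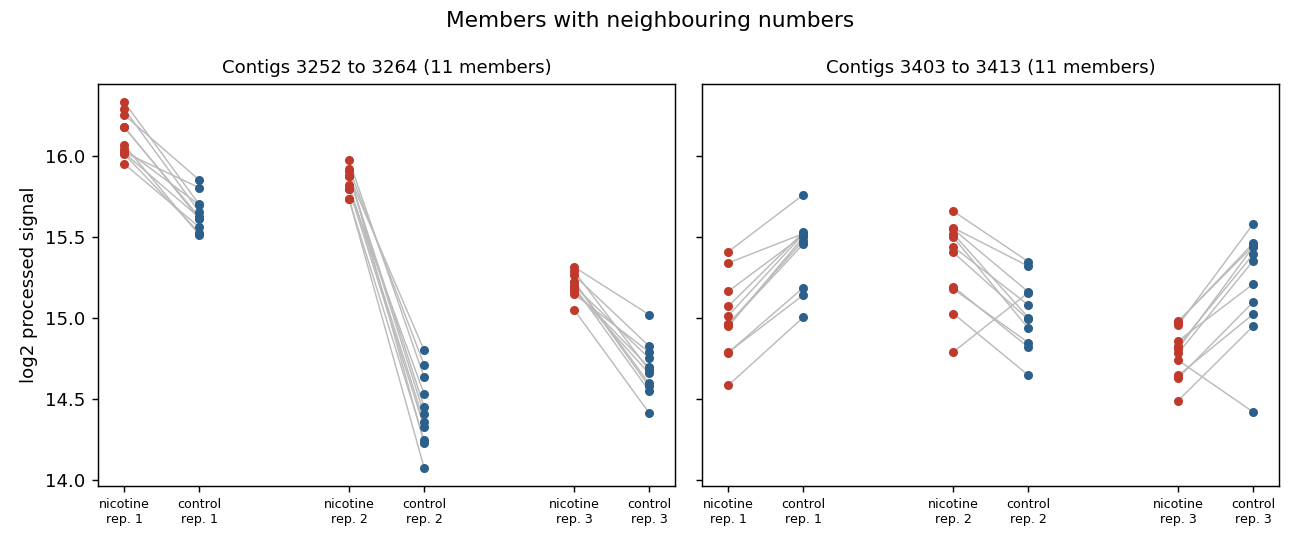
Log2 processed signal (vertical axis) of the 11 members in each stretch of neighbouring contig numbers, with nicotine diet in red left of control diet in blue for replicates 1 to 3 and a grey line joining the values of a contig. In contigs 3252 to 3264 the nicotine value is the higher in each replicate, by most in replicate 2, and in contigs 3403 to 3413 it is mostly higher in replicate 2 only.

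Contigs of a like profile were sought by the largest difference of their 6 levels (3 replicates, 2 diets) from the medians of a stretch. Within 0.5 of the medians of contigs 3252 to 3264 in all 6 lay 10 members outside the stretch, contig4667 and contig4674 among them, and 4 contigs that were no members. For contigs 3403 to 3413 there were 9 members outside the stretch and 0 contigs that were no members, and 10 of the stretch's own 11 members met the limit. The one that did not was contig3413, with log2 ratios of -0.35, -0.29 and 0.30. Whether contigs of a stretch come from the same transcript or from near-identical copies was not tested, and if so they are not separate measurements. With 1 member per run of consecutive numbers, 160 remained, of which 50 (31.25%) were lower and 18 higher with nicotine in all 3 replicates (22.6% lower and 23.5% higher over all probes), and their median coefficient was -0.36. Only steps of 1 were joined in these runs, so contigs 3252 to 3254, 3256 and 3258 to 3264 stayed as separate entries. The 10 members of a like profile outside that stretch were also kept, and each was above 0 in all 3 replicates.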

How the data were processed

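Per the file headers, the deposited scanner files hold spot and background median intensity per channel, read by Agilent Feature Extraction 10.1.1.1, a processed intensity (background-subtracted and dye-normalised) and a log10 ratio, red over green, of those processed signals. The deposited value table holds log2 ratios of red over green. Its scale and direction were found by setting it against the scanner ratios (r of 0.960, 0.969, 0.959 and 0.967 on arrays 1 to 4; column medians -0.01, -0.00, -0.01 and -0.01), its centring is unstated, and the submitters' processing notes name limma. Titles name array 3 as the technical replicate of replicate 1 and descriptions name array 4. The titles were followed.

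Levels are log2 processed signals. Ratios came from spot medians (normexp, offset 50, then loess with control spots at weight 0) in limma 3.58.1 under R 4.3.3, with arrays 1 and 3 turned and averaged. Of 14628 probes, 98 with an outlier flag and 2027 well above background on fewer than 3 arrays were left out. The fit had 1 residual and 2.68 prior degrees of freedom, tests were two-sided, and it was tested on simulated data. The number of arrays limits the precision. All arrays shared 1 slide and 1 scan. Tables and figures were made with pandas 2.3.3 and matplotlib 3.10.9.

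The contigs named were the 10 of best mean rank, 3 on each side of the limit, the 2 of largest and smallest control SD, the 2 of highest and lowest coefficient with 1 direction on all arrays, and the 2 with the dimmest second probe. Besides these, contig1053, contig1529, contig3082, contig3255, contig3257, contig3413, contig3486 and contig3580 were named after their values were seen. Members and lists were chosen with earlier results of these data known.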

Additional observations from a re-analysis of the deposited data

How the results depend on the processing

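Direction and side of the threshold mostly held, except as follows. With array 4 as the repeat of array 1 (the description's reading), 45 of the 200 contigs passed an adjusted p of 0.05 in limma in place of 0, 112 an unadjusted one (47 as reported), 91 of them lower (44), and 6 were at least 2-fold in all replicates (2). Over all 12503 probes these counts were 1752, 5189, 2439 and 109. With 4 arrays as separate samples the adjusted, unadjusted and lower counts were 65, 103 and 85 members, and 3506, 6129 and 2958 of all 12503 probes. Both readings count arrays 1 and 3 apart, though they are the same RNA by title. Coefficients of named contigs passed the threshold in 19 cases, all under these 2 readings. With median centring in place of loess, 6 members had a common sign in all replicates (80), all 6 lower (53), and 0 were 2-fold. Over all 12503 probes, 5187 had a common sign, 2391 were lower in all and 33 were 2-fold. With processed signals 4 members and 76 of all probes were 2-fold. Leaving out a replicate gave 15 to 48 lower at an unadjusted p under 0.05 (15 without replicate 1), 114 to 131 of a common sign (131 without replicate 3), 55 to 97 lower in all (86 without replicate 2, 97 without replicate 3), 3 to 22 at least 2-fold (22 without replicate 2, 12 without replicate 3) and a median coefficient of -0.33 to 0.0078 (0.0078 without replicate 1). Over all 12503 probes, 362, 1787 and 560 were lower at that p without replicates 1, 2 and 3. Of a common sign were 7203, 9272 and 7566 probes, and lower in all 3599, 4517 and 3632. At least 2-fold were 65, 660 and 241 probes. Leaving out 1 hybridisation of replicate 1 gave, for the members in the same order, 44 to 48, 78 to 82, 53 to 54, 2 to 3 and -0.31 to -0.30. The counts over all probes were then 976 to 993, 5754 to 5781, 2822 to 2839 and 41 to 43. Fits without a replicate have no dye term, and 2 replicates share a sign more easily than 3.

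Coefficients that turned sign with a replicate left out were those of contig3543 (-0.44 to 0.11) and contig3274 (-1.51 to 0.30), above 0 without replicate 1, of contig1067 (-2.46 to 0.13), above 0 without replicate 2, of contig2583 (-0.13 to 0.28), below 0 without replicate 2, and of contig2999 (-0.18 to 0.0511), above 0 without replicate 1 and, at 0.02, without replicate 2. With median centring contig2583 was at -0.0779. The cause was not tested. The list shared 184 contigs with one from normexp-corrected signals, 192 after quantile scaling and 173 by the mean of a contig's probes. Lists of 100 and of 400 contigs shared 55% and 84.25% between diets. Ranking all probes together and keeping 1 member per run were chosen after seeing the data. The members lie far above background, but their ratios changed with the normalisation. A common sign was seen in 80 members after loess and in 6 after median centring, against 5769 and 5187 of all 12503 probes. Each array holds both diets of a replicate, so the ratios are pairs already and no further block was added.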

Other observations

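Lists chosen on the nicotine channel were also looked at in a replicate that had no part in the choice. The 200 contigs chosen without replicate 1 had a median log2 ratio there of -0.28 when chosen on the nicotine channel (121 below 0) and of -0.62 when chosen on the control channel (157 of 199 tested below 0). Without replicate 2 the medians in replicate 2 were 0.23 and 0.14, and without replicate 3 those in replicate 3 were 0.20 and 0.19. For both channels of choice the median was below 0 in replicate 1, the replicate with nicotine in green, and above 0 in replicates 2 and 3. Over all 3 replicates the nicotine list had a median coefficient of 0.03, with 93 below and 107 above 0. Members were found over the whole array, with 56, 38, 59 and 47 in 4 equal parts by row.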
